A study of Mus musculus with 2 samples.

Results

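The 10 genes described here respond to low oxygen or control that response: Hif1a, Egln3, Hilpda, Plin2, Slc2a1, Bnip3, Ero1a, Adm, Vegfa and Ankrd37. They were taken as a named list, which was chosen with earlier results of these data known. All 10 of 10 were present among the 55357 genes of both count matrices. The cells were CD45+ cells sorted from digested MC38 tumours (a mouse colon adenocarcinoma line) grown under the skin of C57BL/6 mice. The groups were UEIS LSL and UEIS KI mice, with 1 single-cell library in each. The labels expand neither name, give no promoter, age or sex, and do not say whether tumours of several mice were pooled. No gene in the matrices is called UEIS, so the labels could not be checked against its RNA. The series title concerns UEIS, a micropeptide, and the weakening of the cGAS-STING route to type I interferon. Cells of 1 library are not replicates of a group, so no difference was tested, and the 95% intervals cover counting error only and say nothing of differences among mice.

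When oxygen is plentiful, prolyl hydroxylases mark the HIF-1α protein for destruction through VHL. When oxygen falls, HIF-1α escapes, pairs with ARNT and binds short motifs near genes for glycolysis, blood vessel growth, mitochondrial turnover and lipid storage. Control of HIF-1α is therefore largely at the level of the protein, which was not measured, and inflammatory signals in macrophages can also act on this pathway. Tumour macrophages often lie in poorly perfused regions, where genes of this kind are known to be high.

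After quality limits and removal of called doublets, 8647 cells in UEIS LSL and 8685 in UEIS KI remained, with median depths of 7903 and 8642 UMIs (unique molecular identifiers, counts of single RNA molecules). The libraries shared 34 cell barcode sequences, 25 of them among the cells kept. Macrophage-like cells made up 6315 and 6575 of these cells. They fell into 11 clusters, which are called by number and by the genes that led them, since no cell labels came with the matrices. The 10 genes and a wider list of 60 hypoxia pathway genes had been left out of the clustering, so that they did not define the clusters in which they were compared. Levels are given as CPM, UMIs per 1000000 UMIs of the class or cluster, and differences as log2 ratios of CPM. Levels are compared only within a gene.

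The 4 windows below show stretches upstream of annotated transcription starts, from RefSeq on GRCm38.p6, for 3 genes that moved together across macrophages and for Hif1a, which did not. They are shown because HIF binds a core motif, ACGTG, which reads CACGT on the other strand. The variant GCGTG, which reads CACGC on the other strand, was searched too. Capitals mark the matches on both strands, and a palindrome such as CACGTG counts as 2 overlapping matches. Bases inside annotated exons were left out of the 4 windows shown.
Bnip3: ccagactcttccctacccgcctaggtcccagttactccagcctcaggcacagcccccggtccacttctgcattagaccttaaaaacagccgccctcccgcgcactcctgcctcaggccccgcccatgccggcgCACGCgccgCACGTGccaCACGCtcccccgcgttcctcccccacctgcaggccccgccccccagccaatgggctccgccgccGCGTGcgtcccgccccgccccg
Ankrd37: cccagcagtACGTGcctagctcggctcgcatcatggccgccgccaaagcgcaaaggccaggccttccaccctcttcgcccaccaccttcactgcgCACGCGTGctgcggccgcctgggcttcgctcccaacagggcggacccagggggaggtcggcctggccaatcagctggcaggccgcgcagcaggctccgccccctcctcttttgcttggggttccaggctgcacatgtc
Adm: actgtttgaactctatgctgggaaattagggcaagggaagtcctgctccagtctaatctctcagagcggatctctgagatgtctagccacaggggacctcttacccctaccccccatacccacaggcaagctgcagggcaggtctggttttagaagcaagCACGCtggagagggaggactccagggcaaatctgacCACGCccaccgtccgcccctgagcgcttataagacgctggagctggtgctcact
Hif1a: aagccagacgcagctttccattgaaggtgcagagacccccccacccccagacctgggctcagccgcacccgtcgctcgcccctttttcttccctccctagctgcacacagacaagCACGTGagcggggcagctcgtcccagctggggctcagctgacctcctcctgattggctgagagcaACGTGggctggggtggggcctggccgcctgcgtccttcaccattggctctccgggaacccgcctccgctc
The Bnip3 window (chr7:138909520-138909756, minus strand) held 5 matches, within 237 bases. The Ankrd37 window (chr8:45999868-46000100, minus strand) held 3, the Adm window (chr7:110627407-110627656, plus strand) held 2 and the Hif1a window (chr12:73907617-73907866, plus strand) held 3. In untrimmed windows of 250 bases before the start, exon bases included, all 10 genes had at least 1 start with a match to either motif. These were 10 of their 12 windows. For Hilpda and Vegfa the matches lay in the second window, and none remained there once exon bases were left out. Over all 32851 such windows, 16.6% held ACGTG, 28.2% held GCGTG and 38.6% held either. The first windows of Hilpda and Vegfa held no match, which says only that these letters are not in those windows. A match is a description of letters, not a measured binding site.

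Across the macrophage clusters, 9 of the 10 genes shared 1 pattern: they were highest in clusters 3 and 9 in both libraries, and Hif1a alone was not. Cluster 3 was led by Mmp12, Mmp13, Gpnmb and Inhba and is called Mmp12 macrophages. Cluster 9 was led by Cxcl3, Hmox1 and Ppbp, with Arg1 further down its leading genes. It matched 4 of the markers on the fixed Spp1 Arg1 list, though Spp1 itself, at 5929.7 CPM, was lower there than in clusters 0, 1, 3 and 6. It is called by its number here. Genes of the 10 were themselves among the leading genes, Hilpda and Ero1a in cluster 3 and Egln3 and Ero1a in cluster 9. Summed over the 10 genes and both libraries, the level was 6669 CPM in cluster 9, 6495 CPM in cluster 3 and 1984 CPM in cluster 1, whose leading genes were Chil3, Cd24a and Mcemp1. The lowest sum was 677 CPM, in MHC class II cluster 12, which is a 9.85-fold span (3.30 on the log2 scale).

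**Figure D1:**
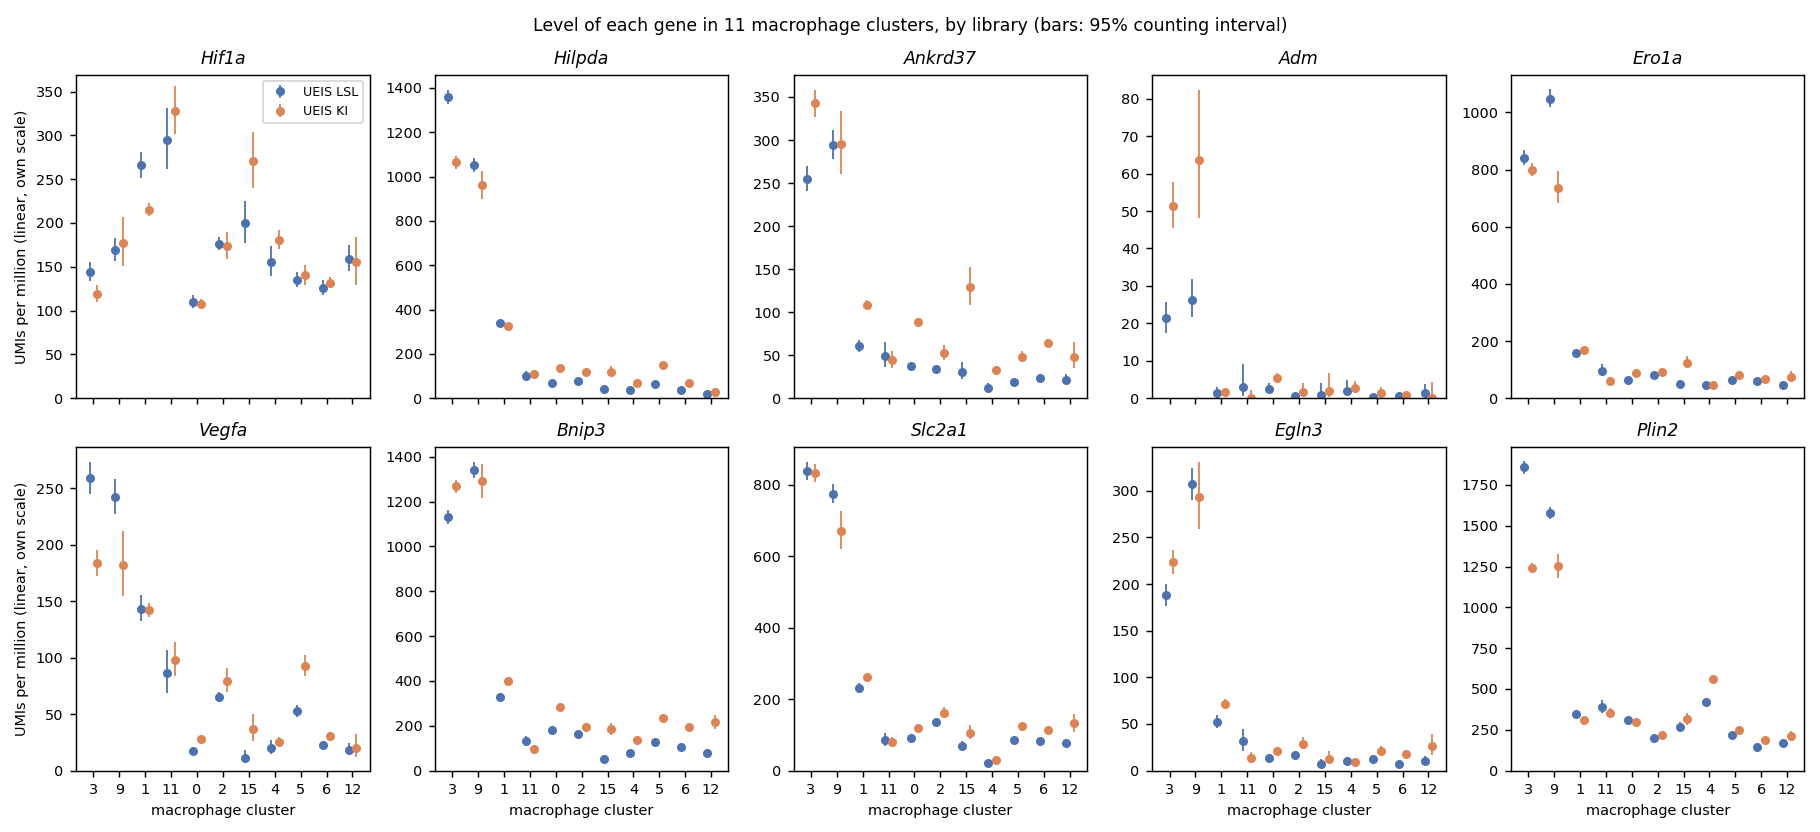
Level of each gene (y axis, CPM, starting at 0) in the 11 macrophage clusters (x axis, in a fixed order that begins with 3 and 9), with 1 marker per library and bars for the 95% counting interval. Clusters 9 and 3 stand above the others for 9 genes in both libraries, while Hif1a is highest in cluster 11.

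Hif1a (chr12:73901375-73947530) encodes the oxygen-regulated subunit of HIF-1. Its level was highest in cluster 11, at 294 CPM in UEIS LSL and 328 CPM in UEIS KI, and lowest in cluster 0, at 109.9 and 108.1 CPM. Its level in cluster 11 overlapped with that of cluster 1 in UEIS LSL and of cluster 15 in UEIS KI. Cluster 11 was led by Tppp3, Id3 and Vcan, and cluster 0 by Ccl12, Ch25h and Stab1. In cluster 3, where its targets were high, Hif1a stood at 144 and 119 CPM. Of the 10 neighbouring pairs in the order of clusters, 8 had overlapping counting intervals in each library, so most of the order of Hif1a is not resolved.

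Egln3 (chr12:54178981-54203860) encodes the prolyl hydroxylase PHD3, itself a HIF target that acts back on HIF-1α. It reached 307 CPM in UEIS LSL and 293 CPM in UEIS KI in cluster 9, and 188 and 224 CPM in cluster 3. Cluster 1 followed with 52.4 and 71.8 CPM, and the dividing cells of cluster 6 held 6.58 and 17.4 CPM. Its top clusters, 9, 3 and 1, came in the same order in both libraries, with no overlap between neighbours.

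The lipid droplet genes were Hilpda (chr6:29272488-29275446), whose product blocks the lipase ATGL, and Plin2 (chr4:86648386-86670060), which coats lipid droplets. Hilpda was highest in cluster 3, at 1359 CPM in UEIS LSL and 1064 CPM in UEIS KI, and next in cluster 9, at 1052 and 961 CPM. In the pooled libraries it went from 1205 CPM in cluster 3 down to 21.7 CPM in cluster 12, a span of 55.4-fold. Plin2 reached 1857 and 1243 CPM in cluster 3 and 1577 and 1251 CPM in cluster 9. Unlike the other genes of the shared pattern, Plin2 came next in the resident-like cells of cluster 4 (led by Ednrb, Lyve1 and Cd209f), at 417 and 558 CPM, and its span of 8.87-fold was narrower than that of Hilpda.

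Slc2a1 (chr4:119108711-119137983) encodes the glucose transporter GLUT1. It stood at 838 CPM in UEIS LSL and 833 CPM in UEIS KI in cluster 3 and at 775 and 672 CPM in cluster 9. In cluster 4 it was at 20.4 and 30.1 CPM, the lowest of all clusters in both libraries. Cluster 4 thus ranked next after 3 and 9 for Plin2 and last for Slc2a1.

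Bnip3 (chr7:138890836-138909519) encodes a receptor for the removal of mitochondria, and Ero1a (chr14:45283087-45318771) an oxidase that helps form disulfide bonds in the endoplasmic reticulum. Bnip3 was at 1341 CPM in UEIS LSL and 1291 CPM in UEIS KI in cluster 9, and at 1131 and 1268 CPM in cluster 3. Ero1a was at 1048 and 737 CPM in cluster 9 and at 842 and 799.8 CPM in cluster 3. The 2 genes shared their order of the top 3 clusters in UEIS LSL, 9, 3 and 1. For both genes, the intervals of clusters 9 and 3 overlapped in UEIS KI.

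The secreted factors were Vegfa (chr17:46016993-46032369), the main growth factor for blood vessels, and Adm (chr7:110627661-110629820), the vasodilator adrenomedullin. Vegfa stood at 259 CPM in UEIS LSL and 183 CPM in UEIS KI in cluster 3 and at 242 and 182 CPM in cluster 9. Cluster 1 came next with 143 and 142 CPM. Adm was the scarcest of the 10, with 266 UMIs in all UEIS LSL macrophages and 483 in UEIS KI. Its level was 26.4 and 63.5 CPM in cluster 9 and 21.3 and 51.2 CPM in cluster 3, against a median of 1.14 CPM over the other 9 clusters with both libraries pooled.

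Ankrd37 (chr8:45996902-46005707), a HIF target that encodes an ankyrin repeat protein, was at 294 CPM in UEIS LSL and 295 CPM in UEIS KI in cluster 9. It stood at 255 and 342 CPM in cluster 3. In the KI library it was also at 129 CPM in cluster 15 (led by Retnla and Ear2), where the LSL library gave 30.8 CPM.

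Set against the other 9 macrophage clusters together, clusters 3 and 9 were higher for the same 9 genes in both libraries. These 2 clusters were chosen for their summed level, so the folds are a description. Adm was 20.8-fold higher in UEIS LSL and 20.6-fold higher in UEIS KI, Egln3 14.4-fold and 7.35-fold, and Hilpda 13.9-fold and 6.57-fold. Vegfa had the smallest fold of the 9, 4.99 and 2.78. Hif1a was at 0.968 of its level in the other clusters in UEIS LSL (156 against 161 CPM) and at 0.789 in UEIS KI (128 against 162 CPM). At least 1.5-fold higher there, with an interval above 1, were 9.9% of all genes measured in UEIS LSL and 7.06% in UEIS KI. At least 1.5-fold lower were 34.2% and 32.2%, with none of the 10 among them, and the median gene was lower, at -0.36 and -0.37 on the log2 scale. Each of the 9 folds was smaller in the KI library, and for Adm alone the counting intervals overlapped (15.3 to 28.6, and 16.9 to 25.1 in the KI library).

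The wider pathway list went with these genes where it held glycolytic enzymes and HIF targets, and much less where it held regulators. Of 21 measured glycolysis genes, 18 were at least 1.5-fold higher in clusters 3 and 9 in each library, among them Pgk1 (4.32-fold in UEIS LSL and 2.79-fold in UEIS KI), which makes ATP in glycolysis. Pfkfb4, which sets the level of a glycolytic activator, was lower, at 0.545 and 0.55 of its level elsewhere. Of the other HIF targets, 21 of 26 measured were higher in UEIS LSL and 21 of 27 in UEIS KI, such as Ndrg1 (6.50-fold and 7.47-fold) and Bnip3l (3.53-fold and 3.004-fold), a relative of Bnip3. Anln, a cell division gene on that list, was at 0.149 and 0.0873. Among 6 measured regulators, Egln1, the main prolyl hydroxylase, was 3.54-fold and 2.78-fold higher, and Vhl passed the limit in UEIS LSL alone (1.52-fold, against 1.36-fold in UEIS KI). Other lipid droplet genes mostly did not pass: Abhd5, a lipase co-activator, was 2.07-fold and 1.80-fold higher, and Lipe, a lipase, was at 0.212 and 0.466.

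Over the 22 profiles formed by 11 clusters in 2 libraries, the genes whose log level followed the mean of the 10 most closely were Tmem189 (Pearson r = 0.98), Egln1 (0.97), Smox (0.97), Bsg (0.96) and Ndrg1 (0.96), among 2703 genes ranked. These points share libraries and cluster depths, so the values describe likeness and carry no p. Against the mean of the other 9 genes, Ero1a (0.98), Egln3 (0.97) and Hilpda (0.97) were closest, Adm (0.86), Vegfa (0.85) and Plin2 (0.84) looser, and Hif1a was at -0.04.

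Within single macrophages the same 9 genes were detected together, and Hif1a was not part of that group. To compare shares at equal depth, each macrophage was thinned to 2000 UMIs, which left 6020 cells in UEIS LSL and 6192 in UEIS KI and left out 295 and 383 shallower ones. All 36 pairs without Hif1a had an odds ratio of co-detection above 1 in both libraries, with a median log2 odds ratio of 2.60 in UEIS LSL cells and 1.78 in UEIS KI cells. The closest pair in UEIS LSL was Bnip3 with Egln3 (3.77, and 2.59 in UEIS KI), and in UEIS KI it was Adm with Bnip3 (3.80, and 3.24 in UEIS LSL). The 9 pairs with Hif1a had medians of -0.01 and -0.06. Over all 45 pairs and both libraries the median was 1.86.

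**Figure D2:**
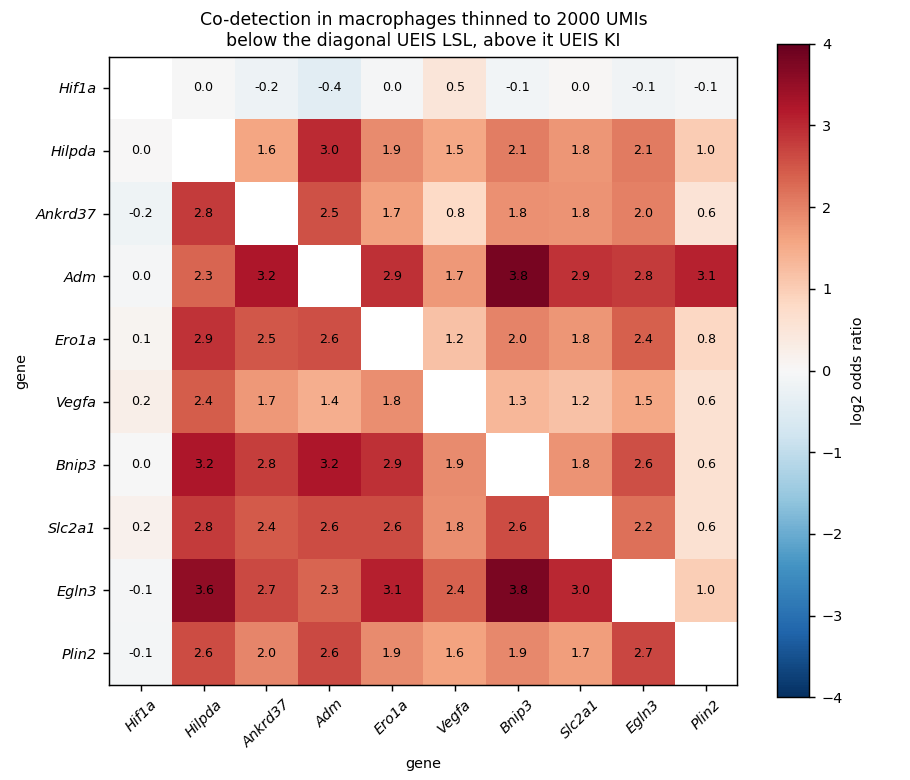
Log2 odds ratio of co-detection for each pair of genes (both axes) in macrophages thinned to 2000 UMIs, with UEIS LSL below the diagonal and UEIS KI above it. The Hif1a row and column are near 0, while all pairs of the other 9 genes are above 0.

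Part of this co-detection was between clusters and part within them. With odds ratios pooled within clusters, the median over all pairs was 0.76, and 71 of 72 values for pairs without Hif1a were still above 0. The pooled medians were close in the 2 libraries, 0.79 in UEIS LSL and 0.73 in UEIS KI. Cells of 1 library share their depth and their free RNA, so these values are a description.

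Macrophages in which at least 5 of the 10 genes were seen after thinning made up 17.3% (95% interval 16.3 to 18.3%) of UEIS LSL and 12.95% (12.1 to 13.8%) of UEIS KI. Without thinning the shares were 41.1% and 50.9%, in the opposite order, with median depths of 7968 and 8974 UMIs per macrophage. The summed level was 1892 CPM in UEIS LSL and 1762 CPM in UEIS KI, which has the order of the thinned shares. In cluster 3, thinned, 64.5% of LSL and 61.1% of KI cells showed 5 or more, and in cluster 9, 73.7% and 60.4%. Cluster 1 followed at 10.7% and 16.0%, and no other macrophage cluster exceeded 4.77%. Unthinned, the shares were 87.2% and 94.2% in cluster 3, 96.5% and 91.3% in cluster 9, and 60.9% and 77.5% in cluster 1. Of the thinned cells with 5 or more, 85.5% lay in clusters 3 and 9 in UEIS LSL and 56.2% in UEIS KI.

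**Figure D3:**
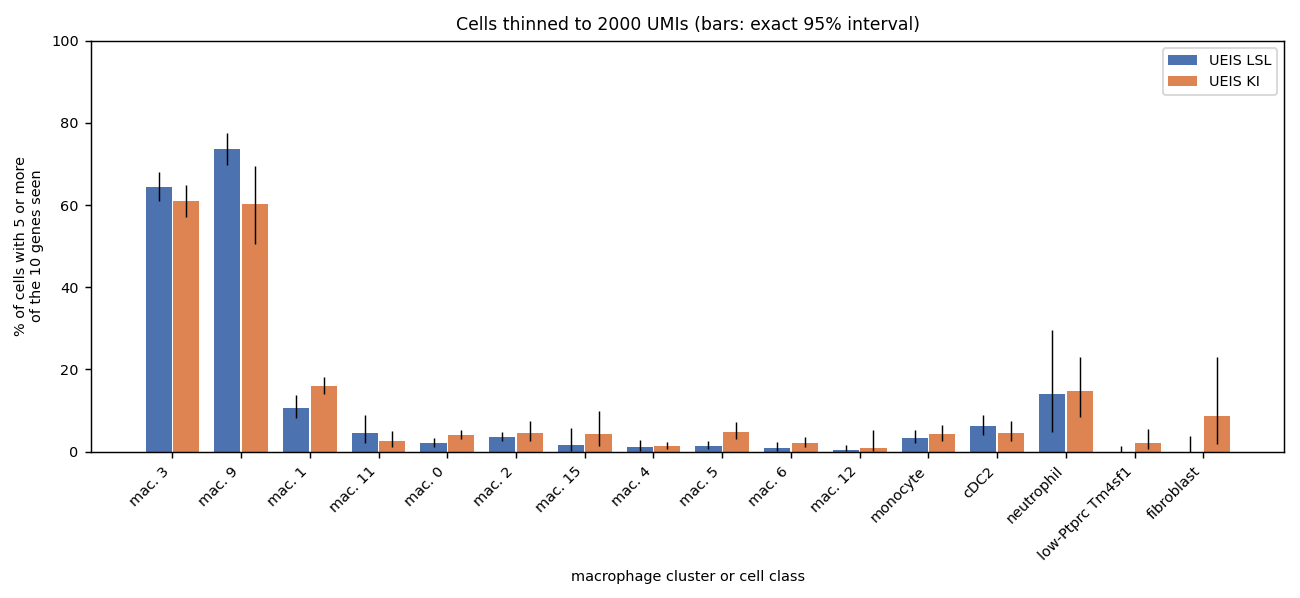
Share of cells (y axis, percent) with at least 5 of the 10 genes seen after thinning to 2000 UMIs, by macrophage cluster and cell class (x axis) and library, with exact 95% intervals. Clusters 3 and 9 lie above 60% in both libraries, and cluster 1 is next among the macrophages.

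Free RNA can give UMIs in cells that do not express a gene, so B cells were used as the reference for shares at 1000 UMIs. A B cell group with more C1q (36 cells) had been set apart as carrying macrophage RNA, so this reference was chosen to be low. Its 12 macrophage markers still summed to 2623 CPM in the LSL library and 5037 CPM in the KI library, against 17965 and 17751 CPM in macrophages. Shares with the 36 cells included were not tested. Hilpda was seen in 8.0% of 25 LSL B cells (interval 0.984 to 26.0%) and 8.89% of 45 KI B cells (2.48 to 21.2%), against 63.8% and 54.3% in cluster 3. Bnip3 was seen in 4.0% and 4.44% of B cells, against 64.4% and 67.0% in cluster 3. Median depths before thinning were 1441 and 1113 UMIs in B cells and 5289 and 8072 UMIs in cluster 3. Unthinned, Hilpda was seen in 10.7% and 11.1% of B cells and in 89.4% and 89.0% of cluster 3 cells. Both genes thus stood far above the B cell share in cluster 3 of each library. Hilpda in monocyte-like cells, at 6.22% and 6.26%, did not, so it is not told apart there from free RNA.

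In macrophages taken as a whole, the KI library differed little from the LSL library for these genes. Hif1a was at 160.1 CPM in UEIS LSL and 159 CPM in UEIS KI, a log2 ratio of -0.01 (95% interval -0.06 to 0.03). Egln3 was at 53.3 and 51.1 CPM (-0.06), and Slc2a1 at 223 and 209.9 CPM (-0.09). Hif1a and Egln3 were the 2 genes whose intervals included 0.

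Lower values in the KI library were those of Ero1a, at 215 and 166 CPM (-0.37), and Plin2, at 483 and 386 CPM (-0.32). Hilpda was at 271 and 245 CPM (-0.15) and Vegfa at 82.9 and 77.1 CPM (-0.11). None of these reached 1.5-fold.

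Higher values in the KI library were those of Adm, at 4.78 and 7.40 CPM (0.63, interval 0.41 to 0.85), Ankrd37, at 70.6 and 102 CPM (0.53), and Bnip3, at 328 and 359 CPM (0.13). Adm was the 1 gene of the 10 past 1.5-fold with its interval on that side of 1. This call was lost with every cell counted alike (0.32), with cluster 10 counted as macrophage (0.55) and after thinning to 2000 UMIs, where its log2 ratio was 0.0208. Among all measured genes 5.26% were past that limit upwards, 4.19% downwards and 9.45% in either direction, so 1 of 10 is near the background. The median log2 ratio of the 10 was -0.08, and that of all measured genes 0.04.

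This whole-class value joined 2 differences of opposite sign. Clusters 3 and 9, where the genes were highest, held 21.0% of the macrophages in UEIS LSL (interval 20.01 to 22.04%) and 11.2% in UEIS KI (10.4 to 11.95%). Cluster 3 alone held 12.4% and 9.41%, and cluster 9 held 8.60% and 1.75%. The 2 clusters together held 58.8% of the UMIs of the 10 genes in UEIS LSL macrophages and 33.1% in UEIS KI, from 16.2% and 9.57% of all macrophage UMIs. Median depths in these 2 clusters were 5632 and 7949 UMIs per cell, and the part of depth in the shares of cells was not tested.

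In the remaining 9 clusters, which held 4988 LSL and 5841 KI macrophages, all 10 genes had a log2 ratio above 0. Ankrd37 went from 31.5 CPM in UEIS LSL to 77.3 CPM in UEIS KI (1.29), Adm from 1.14 to 2.58 CPM (1.18) and Egln3 from 16.8 to 31.8 CPM (0.92). Hilpda went from 87.5 to 159.5 CPM (0.87) and Bnip3 from 154 to 262 CPM (0.77). These 5 of 10 passed the 1.5-fold limit, against 5.62% of all measured genes upwards, and none passed downwards (4.05%). Slc2a1 (0.41), Ero1a (0.40), Vegfa (0.39) and Plin2 (0.29) were higher by less than 1.5-fold, and Hif1a was at 161 and 162 CPM (0.01, with an interval that included 0). The median of the 10 was 0.59, against 0.03 over all measured genes. These pooled values also hold a change of mix: cluster 1, next after 3 and 9 for the summed level, held 8.02% of macrophage UMIs in UEIS LSL and 22.3% in UEIS KI, and cluster 2 held 23.1% and 4.35%. Within the 9 clusters the summed level was higher in the KI library in 8, by 0.06 in cluster 1 up to 0.83 in cluster 15, and was at -0.10 in cluster 11. In cluster 1 itself Hilpda was at -0.05, Vegfa at -0.01 and Plin2 at -0.17.

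Inside clusters 3 and 9 the picture was another. Adm was the 1 gene past 1.5-fold, from 23.6 CPM in UEIS LSL to 53.0 CPM in UEIS KI (1.17), where 3.59% of all genes passed upwards and 4.76% downwards. Plin2 went from 1730 to 1244 CPM (-0.48) and Vegfa from 251 to 183 CPM (-0.46). Slc2a1 was at 809.8 and 810.3 CPM, and the median of the 10 was -0.13.

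**Figure D4:**
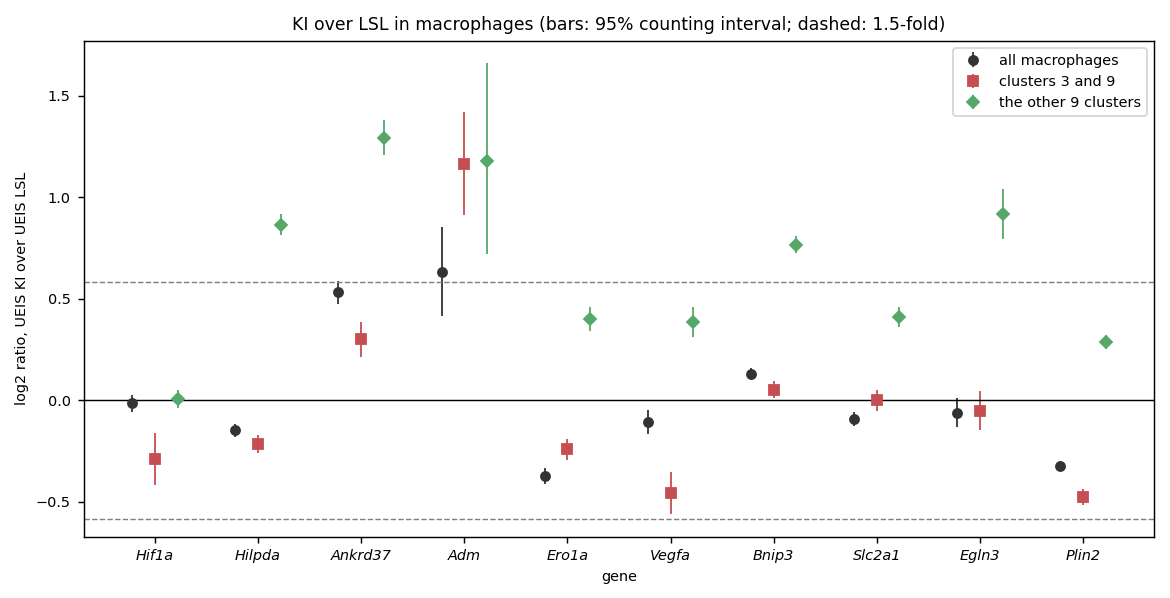
Log2 ratio of CPM, UEIS KI over UEIS LSL (value axis), for each gene in all macrophages, in clusters 3 and 9, and in the other 9 clusters, with 95% counting intervals and dashed lines at 1.5-fold. Points of the other 9 clusters lie to the higher side for 9 genes, while those of clusters 3 and 9 do so clearly for Adm and Ankrd37.

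Cluster by cluster, Ankrd37 was at least 1.5-fold higher in the KI library in 8 of the 11 clusters (0, 1, 2, 4, 5, 6, 12 and 15). The share of all measured genes past the limit upwards was 3.47% in cluster 0, 3.46% in 1, 3.43% in 2, 3.8% in 3, 5.26% in 4, 2.86% in 5, 3.53% in 6, 5.19% in 9, 5.12% in 11, 3.57% in 12 and 6.67% in 15. The exceptions were cluster 3, at 255 and 342 CPM (0.43), cluster 9, at 294 and 295 CPM (0.01), and cluster 11, at 48.9 and 44.1 CPM (-0.15). Bnip3 passed upwards in 6 clusters, Hilpda and Egln3 in 5 each, Vegfa in 3 and Ero1a and Slc2a1 in 2 each. Adm, measured in clusters 0, 3 and 9 alone, passed upwards in all 3 (1.07, 1.27 and 1.27). Hif1a and Plin2 passed in none. Cluster 11, with 214 and 355 cells, had the opposite sign for Egln3 (31.2 and 13.1 CPM, -1.25) and Ero1a (96.7 and 62.0 CPM, -0.64). In that cluster 3.89% of all measured genes passed downwards. The shares downwards were 3.43%, 1.92%, 2.91%, 5.18%, 3.16% and 4.26% in clusters 0 to 5, 3.58% in 6, 3.46% in 9, 3.92% in 12 and 4.88% in 15, where none of the 10 genes passed downwards.

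The largest ratios were in cluster 15, which held 127 and 126 cells. Of the fixed marker lists, that of cDC2 cells (a type of dendritic cell) scored highest there. Its mean log2 ratio was 1.01, under the 1.5 needed for a name. The cluster was kept as macrophage-like with a mean macrophage log2 ratio of 0.0, the lowest of the macrophage clusters. The part of dendritic cells in its ratios was not tested. Ankrd37 went from 30.8 to 129 CPM (2.07), Bnip3 from 51.9 to 185 CPM (1.83) and Vegfa from 11.3 to 36.8 CPM (1.70). Hilpda went from 43.6 to 121 CPM (1.47). Even so, each of these 4 KI levels was under those of clusters 3 and 9 in both libraries.

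Other pathway genes in macrophages as a whole were mostly within 1.5-fold between the libraries. None of 21 glycolysis genes passed the limit in either direction. Among 28 other HIF targets, Fam13a (0.485 and 2.42 CPM) and Anln (13.5 and 23.4 CPM) were higher in the KI library. Plod2, a collagen-modifying enzyme, was lower over all macrophages (2.51 and 1.61 CPM). Its log2 ratio was -0.38 (interval -0.86 to 0.09) within clusters 3 and 9 and 0.26 (-0.42 to 0.97) outside them. Plod2 was 18.2-fold (LSL) and 11.7-fold (KI) higher in clusters 3 and 9 than elsewhere. Dividing cluster 6 went from 12.5% of LSL macrophage UMIs to 19.0% of KI ones. How far the cluster mix entered the Plod2 and Anln values was not tested. Of 6 regulators, Epas1, which encodes HIF-2α, was higher, from a low level of 1.02 to 1.92 CPM. Of 8 lipid droplet genes, G0s2, an ATGL inhibitor like Hilpda, was higher (0.287 and 1.44 CPM). G0s2 was also among the leading genes of the neutrophil-like subclusters, of which the KI library held more cells (190 against 68), and the 12 neutrophil markers summed to 189 and 229 CPM in macrophages, with none at 0 and 2 seen in at least 20% of the cells. Their part in the G0s2 value was not tested. In the 9 clusters without 3 and 9, the medians were 0.32 for glycolysis and 0.29 for the other HIF targets, against 0.03 for all measured genes.

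Outside the macrophages the genes showed other patterns. Monocyte-like cells (636 in UEIS LSL and 505 in UEIS KI, marked by Ly6c2, Plac8 and Ccr2) had more Hif1a than macrophages, at 309.9 and 305 CPM. Their Hilpda stood at 65.2 and 93.8 CPM and their Bnip3 at 100.03 and 120.3 CPM. In these cells the 12 macrophage markers summed to 9985 CPM in UEIS LSL and 8607 CPM in UEIS KI. The part of macrophage RNA in their values was not tested. Of 9 measured genes, Ankrd37 was the 1 past 1.5-fold, from 23.6 to 53.7 CPM (1.19, interval 0.79 to 1.59), where 2.89% of all genes passed upwards and 2.19% downwards. The median of the 9 was 0.27, and 0.57 or 0.63 where the cells were clustered with the hypoxia genes kept or at resolution 2.

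**Figure D5:**
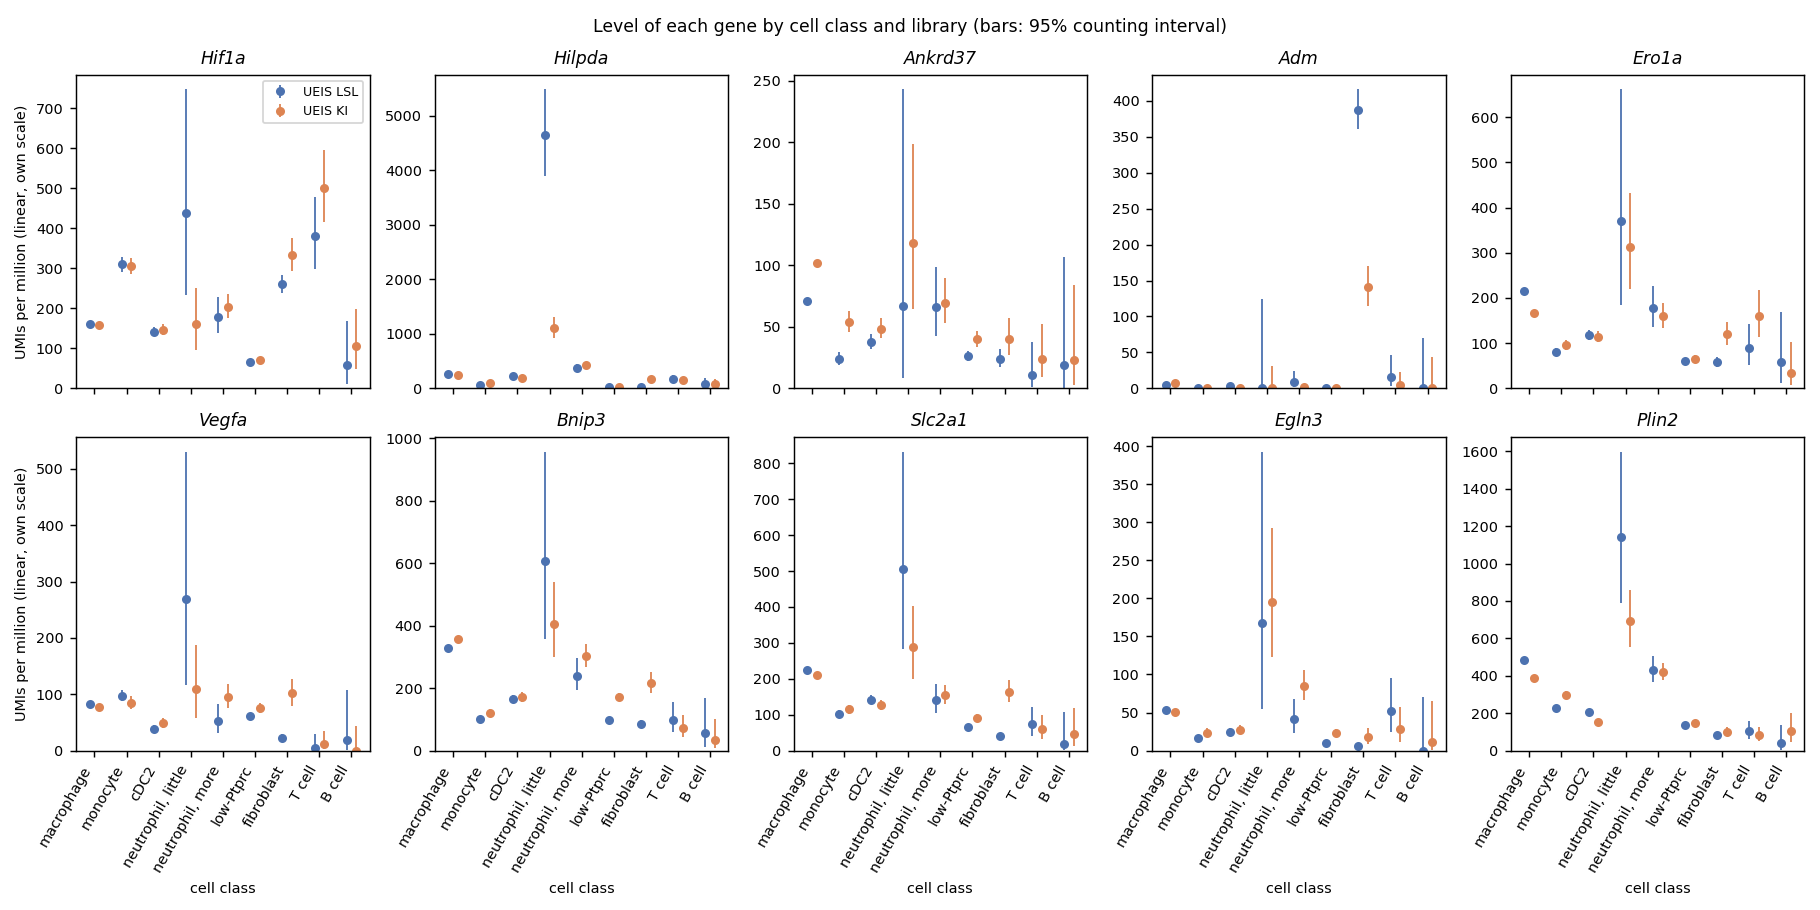
Level of each gene (CPM) in the cell classes, by library, with 95% counting intervals. Among the classes named in the text, Hif1a is highest in UEIS KI in T cells with little macrophage RNA. In UEIS LSL it is highest in neutrophil-like cells with little macrophage RNA (437 CPM from 13 UMIs). Adm is highest in fibroblast-like cells, and the low-Ptprc cells are low for most genes.

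Neutrophil-like cells were few, 68 in UEIS LSL and 190 in UEIS KI. They carried 17415 and 14964 CPM of the 12 macrophage markers, close to the 17965 and 17751 CPM of macrophages themselves. In these cells Hilpda was at 697 CPM in UEIS LSL and 505 CPM in UEIS KI, above the macrophage level in both. Egln3 was the 1 of 9 measured genes past 1.5-fold, from 51.0 to 97.9 CPM (0.94, interval 0.23 to 1.71), where 6.21% of all genes passed upwards and 4.94% downwards. In the subcluster with most of the Egln3 UMIs (22 and 76 cells) the log2 ratio was 0.51 (interval -0.51 to 1.71), and the subclusters took unlike shares of both libraries, 8 of 68 and 51 of 190 cells in one. In the other subclusters Egln3 had too few UMIs to be measured. The median of the 9 measured genes was 0.02, and 0.57 with a mitochondrial limit of 20%.

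In the neutrophil-like cells with little macrophage RNA, 24 and 70 in number, the macrophage markers were at 3834 and 2833 CPM, with Adgre1 at 0 in UEIS LSL. There Hilpda was at 4642 CPM in UEIS LSL and 1099.5 CPM in UEIS KI, a log2 ratio of -2.08 beside a median of -0.72 for the 3 measured genes (Hilpda, Plin2 and Bnip3), where 19.5% of all measured genes passed the limit downwards and 14.7% upwards. These cells came from 2 subclusters of unlike make-up. One, with 16 and 19 cells, was at 6320.1 and 4117 CPM of Hilpda. The other, with 8 and 51 cells, had 0 Hilpda UMIs in UEIS LSL and 339 CPM in UEIS KI. The library with the higher pooled value thus had more of its cells in the first subcluster, within which the log2 ratio was -0.62. The part of macrophage RNA in the Hilpda of the other neutrophil-like cells was not tested.

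The cells set apart by low Ptprc (the gene for CD45) and high Tm4sf1 had been proposed as tumour-like, and stayed in the data in spite of the CD45+ sort. The fixed markers did not bear that name out and settled no other. Of 13 fixed tumour markers, Hmga2 and Tnfrsf12a alone were seen in at least 20% of the cells, and 7 were at 0 in UEIS LSL and 8 in UEIS KI, Epcam, Krt18 and Krt20 among both. Of 10 fibroblast markers, 9 were seen in at least 20%, but so were 7 of 12 macrophage markers. By mean log2 ratio, the tumour list scored highest in subclusters of 123 and 15, 35 and 37, and 4 and 25 cells (0.38, 0.22 and 0.68). The fibroblast list did so in the others (2.26, 1.72 and 0.61), against 4.5 to 5.34 in the fibroblast-like subclusters. The cells are therefore called low-Ptprc Tm4sf1 cells, 312 and 234 in number. Their summed level of the 10 genes was 555 CPM in UEIS LSL and 712 CPM in UEIS KI. In UEIS LSL this was below all 11 macrophage clusters, the lowest of which was cluster 12 at 605.3 CPM, and in UEIS KI likewise, where the lowest was cluster 6 at 878 CPM. This holds for the pooled cells and not for each of their subclusters, 1 of which was at 1059 CPM in UEIS LSL (17 cells) and 921 CPM in UEIS KI (79 cells).

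In these cells Hif1a was at 66.4 CPM in UEIS LSL and 69.8 CPM in UEIS KI and Hilpda at 29.0 and 28.6 CPM. Of 9 measured genes, 3 were past 1.5-fold in the KI library, where 6.0% of all genes passed upwards and 4.66% downwards. Egln3 went from 10.6 to 22.6 CPM (1.09), Bnip3 from 99.0 to 172 CPM (0.80) and Ankrd37 from 26.0 to 39.8 CPM (0.62). The median of the 9 was 0.32.

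The low-Ptprc cells fell into 6 subclusters that held unlike shares of each library. Those with most LSL cells held 123 and 15 cells (LSL and KI) and 113 and 27 cells, while others held 17 and 79, 20 and 51, and 35 and 37. The last of the 6 had 4 and 25 cells. Bnip3 had a log2 ratio of -0.05, -0.13, 0.19 and 1.15 in the first 4 of these in turn and passed 1.5-fold in the subcluster of 20 and 51 cells alone. Ankrd37 passed in none of the 4, at -1.39, 0.80, 0.18 and 0.95 in the same turn, each with an interval that included 0. Egln3 had enough UMIs in the subcluster of 17 and 79 cells alone, where it was at -0.46. The summed log2 ratio of the 10 genes was 0.69 in the subcluster of 20 and 51 cells and between -0.20 and -0.03 in the other 4 with enough UMIs. The part of the mix of subclusters in the pooled values above was not tested.

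Fibroblast-like cells, 104 in UEIS LSL and 35 in UEIS KI, held the highest Adm of any class, at 387 CPM in UEIS LSL and 140.4 CPM in UEIS KI (-1.46, interval -1.77 to -1.17). Here 7.7% of all measured genes passed the limit downwards and 6.19% upwards. In the subclusters, Adm was at 336 and 212 CPM in the first, at 559 and 318 CPM in the second and at 39.7 and 80.3 CPM in the third, so the sign of the pooled value held in 2 of 3. Hilpda went the other way, from 27.4 to 166 CPM (2.60), and 5 more of the 9 measured genes were also past 1.5-fold upwards, Slc2a1 (2.04) and Vegfa (2.22) among them. The 3 subclusters held 46, 42 and 16 LSL cells and 8, 8 and 19 KI cells. Within the third, Slc2a1 had a log2 ratio of 1.01 and Vegfa of 1.52, below the pooled values, and Hilpda of 3.87, above it. In the first and second, these genes had too few UMIs to be measured. Bnip3, measured in all 3, was at 1.02, 1.51 and 0.95, beside a pooled 1.36. The third subcluster also held most of the Hilpda UMIs of the KI library, 103 of 124. The part of the mix in the pooled values was not tested.

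T cells with little macrophage RNA (93 and 128 cells) were at 380.5 CPM of Hif1a in UEIS LSL and 501 CPM in UEIS KI, and 1 subcluster of 27 and 30 of these cells, singled out after its values were seen, was at 675 and 851 CPM. In the same T cells Bnip3 was at 99.0 and 72.1 CPM, under its macrophage level. In cDC2-like cells (a type of dendritic cell, 411 and 309 cells), none of 9 measured genes passed 1.5-fold in either direction, where 3.28% of all genes passed upwards and 2.15% downwards. Plin2 came nearest there, at 205 and 151 CPM (-0.44).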

How the data were processed

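Each group gave 1 single-cell library (10x Genomics, 3' v3 chemistry). The values are raw UMI counts of genes in cell barcodes, deposited by the authors without scaling and made with Cell Ranger on mm10. The version is 2.1.1 per the submitters' processing notes and 8.0.1 per the file headers. Gene positions are from GENCODE on GRCm38 and windows from RefSeq on GRCm38.p6. The printed windows were trimmed to bases outside annotated exons, and the shares of windows with a motif were counted before trimming.

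The depth was 92764697 UMIs over 9527 barcodes in UEIS LSL and 99404988 over 9734 in UEIS KI. The limits were 500 UMIs and 200 genes as minima and 10% mitochondrial UMIs as maximum, which 9370 and 9442 barcodes met. The barcodes with the highest Scrublet doublet scores (0.8% per 1000 barcodes) were removed, 723 and 757 of those kept. Both libraries were clustered together with scanpy 1.11.5 and leidenalg 0.10.2 (2000 variable genes, 30 components, 15 neighbours, resolution 1), and the smaller clusters once more (1500 genes, resolution 2). Clusters were named where at least 3 fixed markers and a mean log2 ratio of at least 1.5 (pseudocount 10 CPM) pointed to 1 type. Macrophage-like clusters were not named by this rule. They had at least 8 of 12 macrophage markers seen in 20% of cells, and Ptprc in 40%. Their mean macrophage log2 ratio over cells outside these clusters and cluster 10 was at least -0.25. Low-Ptprc Tm4sf1 cells were set apart by limits of their own on Ptprc, Tm4sf1 and fibroblast markers. The naming limits were set after the data were seen. One of them kept cluster 10, led by Ctsk and Acp5, out of the macrophages: 2.51% of UEIS LSL cells and 4.85% of UEIS KI cells. Groups of T cells, natural killer cells, B cells and neutrophils whose C1q level reached 0.25 of the macrophage level were set apart as carrying macrophage RNA. The limit was not applied to other classes, and the monocyte-like cells were at 0.309.

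CPM are summed UMI counts of a library and class over the total of that class, with exact Poisson intervals. Ratios carry exact conditional binomial intervals and shares exact Clopper-Pearson intervals, all at 95%. A gene was measured with at least 50 UMIs over both libraries, and passed where its ratio was at least 1.5-fold with its interval on that side of 1. For a ratio, 3 counts stood in for 0. Odds ratios had 0.5 added to each count. Genes most alike were ranked above 50 CPM. Counting and ratio steps were tested on simulated data. Alternatives were other quality limits, resolutions and thinning, doublets kept, every cell counted alike, and others added after the data were seen.

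The members and lists were chosen with earlier results of these data known. The text names the 10 genes in each class, the pathway genes by list with the members of largest level or past the limit, and the genes most alike in profile. A few pathway examples were chosen after their values were seen.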

Additional observations from a re-analysis of the deposited data

Results flagged for a closer look

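The following values are given because a gene was past 1.5-fold in opposite directions in different cell groups of the same contrast, UEIS KI over UEIS LSL. None of these differences between groups was tested, since each rests on 1 library per group, and intervals cover counting error alone. Adm had a log2 ratio of 0.63 in macrophages and of -1.46 in fibroblast-like cells, of which the KI library held 35. Hilpda had a log2 ratio of 2.60 in fibroblast-like cells and of -2.08 in neutrophil-like cells with little macrophage RNA, 24 and 70 in number. Among macrophage clusters, Ero1a had a log2 ratio of 0.63 in cluster 12 and 1.30 in cluster 15, but -0.64 in cluster 11. Egln3 had a log2 ratio of 0.61 in cluster 0, 0.78 in cluster 2, 0.77 in cluster 5, 1.40 in cluster 6 and 1.30 in cluster 12, but -1.25 in cluster 11. Cluster 11 was the shallowest of the macrophage clusters, with median depths of 3723 and 4021 UMIs, and the part of depth in its values was not tested.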

How the results depend on the processing

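Values with 1 library per group carry counting error alone, so the settings below show how far the processing moves them. No paired analysis was possible because each group held 1 library. The median log2 ratio of the 10 genes in macrophages (-0.08) was -0.29 with called doublets kept, -0.29 with every cell counted alike, -0.25 after thinning to 2000 UMIs and -0.15 with cluster 10 counted as macrophage. It turned to 0.0803 with the cluster mix held equal and to 0.59 without clusters 3 and 9. The count of genes past 1.5-fold (1) was 0 with every cell counted alike, 0 after thinning, 0 with cluster 10 included (Adm at 0.32, 0.0208 and 0.55), 2 with an equal mix and 5 without clusters 3 and 9. With an equal mix the sign also turned for Hilpda (0.0239), Vegfa (0.0215), Slc2a1 (0.14) and Egln3 (0.31), and without clusters 3 and 9 for Hilpda (0.87), Ero1a (0.40), Vegfa (0.39), Slc2a1 (0.41), Plin2 (0.29), Egln3 (0.92) and Hif1a (0.0076), where the intervals of Egln3 and Hif1a over all macrophages had included 0. Bnip3 turned to -0.10 with every cell counted alike and to -0.0709 after thinning. The monocyte-like median (0.27) was 0.57 with hypoxia genes kept in the clustering and 0.63 at resolution 2, and kept doublets gave none, since no cluster was then named monocyte. The neutrophil-like median (0.02) was 0.57 with a mitochondrial limit of 20% and -0.72 in the cells with little macrophage RNA. The co-detection median (1.86) was 0.76 within clusters. The log2 span over macrophage clusters (3.30) was 3.79 at resolution 2 and 3.40 with hypoxia genes kept. The median of the low-Ptprc cells (0.32) ranged from 0.22 with no minimum count to 0.54 with every cell counted alike. The cause of each change was not tested, apart from the settings whose construction leaves out or reweights the clusters named.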
